A study of Mus musculus with 15 samples.

Results

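The genes described here are Erbb4 and the rest of its receptor family, with the neuregulins that bind it: the receptors Erbb4, Erbb2, Erbb3 and Egfr and the ligands Nrg1, Nrg2 and Nrg3. These 7 genes, of 22180 measured, were taken by name, and each had 1 row on the array with no other gene symbol. The family was chosen because Erbb4 was already known to differ in these data, both after libraries that disagree with their labels are set aside and along the Gsk3a row, so those values of Erbb4 are given as a description.

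RNA from cerebella of newborn C57BL/6 mice was measured on 15 whole-transcript arrays, in 3 groups of 5 libraries. DKO libraries come from mice that lack both forms of the kinase Gsk-3, alpha as well as beta, in cerebellar granule neuron progenitors (CGNPs). The Math1-Cre control (M1Cre, Gska+-, GskBff) has lost the beta form alone. The no-Cre control (Gska+-, GskBff, without Cre) is labelled Gsk-3 intact, and its replicate 5 has no Gsk3b genotype in its description. Both controls therefore carry 1 altered Gsk3a allele, and no group is wild type for Gsk3a. The Math1 (Atoh1) promoter drives Cre in granule cell precursors and other cells of the rhombic lip lineage, so the Cre-dependent deletion does not reach the remaining cells of the cerebellum. Each library is whole cerebella of 1 replicate, dissociated at postnatal day 1 by one field and day 2 by another, and the design text describes an enrichment of progenitors on a density gradient. The labels name no litter or culture, so p-values cover only the spread among these libraries, which may be technical.

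ERBB receptors are tyrosine kinases that act as pairs. EGFR binds epidermal growth factor and its relatives, ERBB4 binds neuregulins and signals through its own kinase, ERBB3 binds neuregulins but has a weak kinase, and ERBB2 has no known soluble ligand and serves as a partner for the others. In the developing mouse cerebellum neuregulin is made by migrating granule neurons and ERBB4 is found on the radial glia that guide them, and in cultured rodent granule cells neuregulin raises the NMDA receptor subunit gene Grin2c and the GABA-A receptor subunit gene Gabrb2.

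The promoters of Erbb4 and Egfr are shown because these were the 2 receptors with the largest mean differences between libraries low and high on the Gsk3a row. The low and high libraries overlapped for Egfr. Each stretch is the 250 bases before the annotated gene start from RefSeq, assembly GRCm38.p6, read 5′ to 3′ on the strand of the gene, with CG dinucleotides in capitals. The Erbb4 stretch lies at chr1:69108060-69108309 on the minus strand and the Egfr stretch at chr11:16751953-16752202 on the plus strand.
Erbb4: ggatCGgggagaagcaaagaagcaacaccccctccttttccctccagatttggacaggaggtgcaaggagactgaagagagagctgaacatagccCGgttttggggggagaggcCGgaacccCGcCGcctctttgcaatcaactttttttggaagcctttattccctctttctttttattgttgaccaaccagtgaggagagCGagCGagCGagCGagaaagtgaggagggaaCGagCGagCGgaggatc
Egfr: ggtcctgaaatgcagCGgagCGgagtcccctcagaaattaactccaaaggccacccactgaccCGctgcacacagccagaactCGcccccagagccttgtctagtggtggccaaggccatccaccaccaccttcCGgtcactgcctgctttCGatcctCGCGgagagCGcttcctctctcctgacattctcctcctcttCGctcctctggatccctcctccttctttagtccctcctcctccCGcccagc
The Erbb4 stretch held 12 CG dinucleotides at 54.0% G and C, and the Egfr stretch held 11 at 60.8%, against a median of 52.4% G and C over 32851 promoters of the same length. Both strands were searched for the TCF/LEF core CTTTGA, the E-box CANNTG and the GLI motif GACCACCCA, which 13.8%, 66.2% and 0.225% of all promoters hold. None of these letters stood in the Erbb4 or the Egfr stretch. Of the 7 genes 4 matched a promoter entry. The Erbb2 promoter held 1 E-box, 82 bases before the start, and the Nrg3 promoter held none of the 3 motifs.

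The targeted genes were read first, as a check of the labels. The row annotated to Gsk3a, which it shares with 9130221H12Rik, stood at 9.47, 8.22, 9.37, 7.89 and 8.27 in DKO libraries 1 to 5, at 8.25, 8.03, 9.48, 9.50 and 9.51 in Math1-Cre libraries 1 to 5, and at 9.42, 9.52, 9.59, 9.42 and 9.57 in no-Cre libraries 1 to 5 (deposited log2 expression, as are all levels here). It went against the label in 4 libraries: DKO 1 and DKO 3 were as high as the no-Cre libraries, and Math1-Cre 1 and Math1-Cre 2 were as low as the other DKO libraries. Results are therefore given with all 15 libraries, and again with the 11 whose row follows the label. Libraries below 9.0 on the row are called Gsk3a-low (DKO 2, 4 and 5 and Math1-Cre 1 and 2) and the other 10 Gsk3a-high. The library nearest below that line was DKO 5 at 8.27, and the nearest above it was DKO 3 at 9.37. Among the 11 libraries every DKO library is Gsk3a-low and every control is Gsk3a-high. Results for DKO from the 11 are therefore not independent of the split on the row. The Gsk3b row ranged from 10.59 to 10.98 in DKO libraries, from 10.68 to 10.93 in Math1-Cre libraries and from 10.61 to 10.84 in no-Cre libraries, so it did not separate the groups. Correlations between libraries over all genes ran from 0.981 to 0.997.

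Erbb4, the neuregulin receptor with its own active kinase, was lowest in the Gsk3a-low libraries. Its level was 9.48, 9.01, 10.38, 8.80 and 9.19 in DKO libraries 1 to 5. It was 9.30, 9.31, 9.74, 9.43 and 9.50 in Math1-Cre libraries 1 to 5, and 9.62, 10.38, 10.22, 10.29 and 10.51 in no-Cre libraries 1 to 5. The 5 lowest values were those of the 5 Gsk3a-low libraries, from DKO 4 at 8.80 to Math1-Cre 2 at 9.31. The next were Math1-Cre 4 at 9.43 and DKO 1 at 9.48, and the highest were no-Cre 5 at 10.51, no-Cre 2 at 10.38 and DKO 3 at 10.38. DKO 3, 1 of the 2 DKO libraries with a high Gsk3a row, thus stood among the no-Cre libraries, while Math1-Cre 3, 4 and 5 stood below 4 of the 5 no-Cre libraries. The Gsk3a-high libraries fell apart into 5 between 9.43 and 9.74 and 5 between 10.22 and 10.51, with no library between.

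Erbb4 was the only one of the 7 genes whose Gsk3a-low libraries (8.80 to 9.31) all lay below the Gsk3a-high libraries (9.43 to 10.51). Over all 22180 genes, 0.843% lay below in this way and 1.51% were separated in either direction. The mean of Erbb4 was 9.12 ± 0.22 in the Gsk3a-low libraries (SD, n = 5) and 9.95 ± 0.44 in the Gsk3a-high libraries (SD, n = 10), a difference of -0.83, and 0.0947% of genes had a lower difference. The split used a measured value and Erbb4 was chosen along it, so no test is given. The Gsk3a-high libraries that carry Cre, at 9.43 to 10.38, overlapped the no-Cre libraries, at 9.62 to 10.51. Their means differed by -0.50, and 0.23% of genes had a lower difference. Between Math1-Cre and no-Cre libraries by label the Erbb4 means differed by -0.75, and 0.0135% of genes had a lower difference. A low rank of Erbb4 was therefore not particular to the split on the Gsk3a row.

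**Figure D1:**
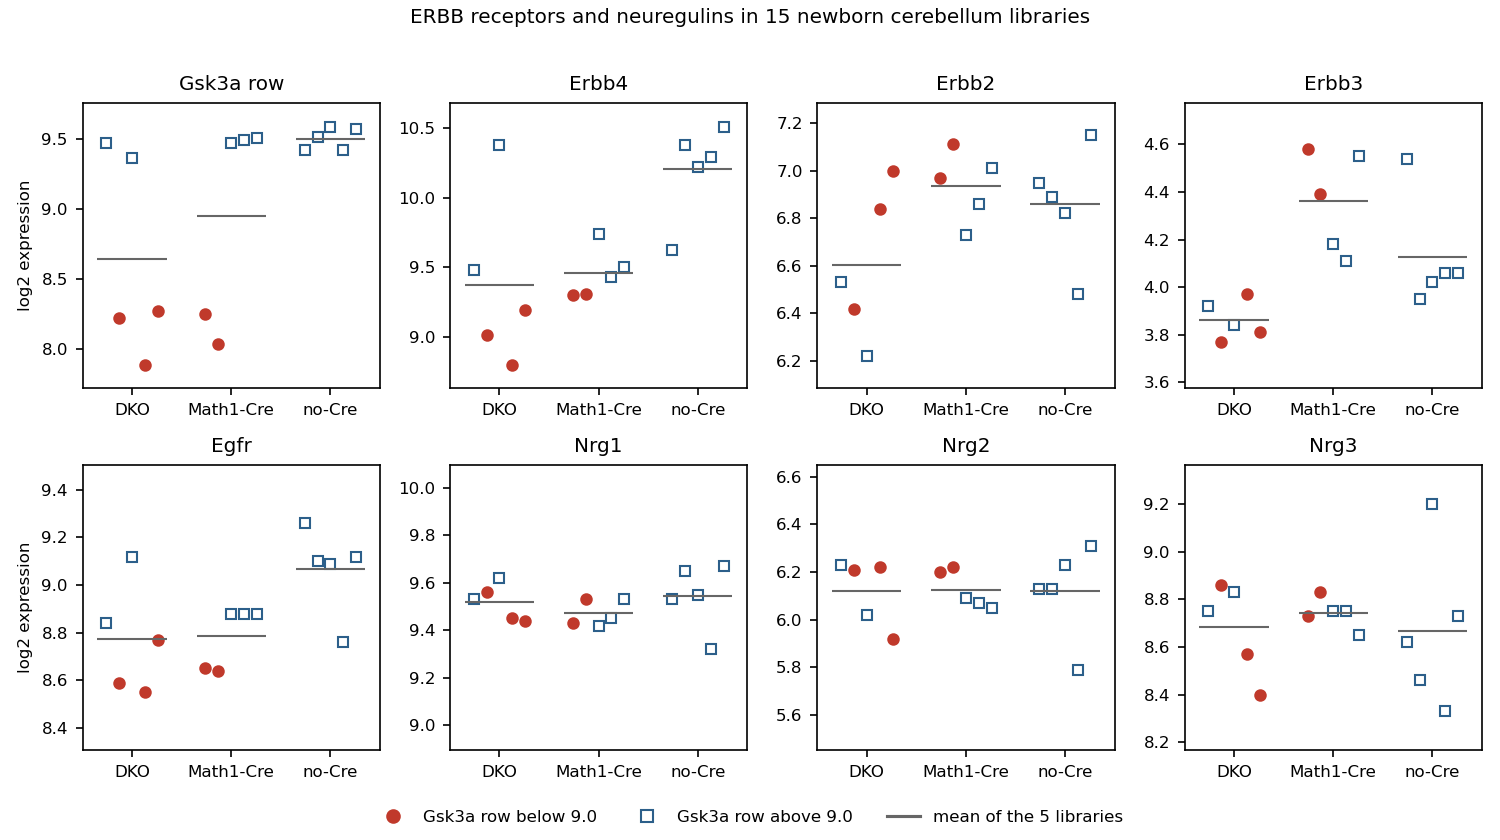
Level (deposited log2 expression) of the Gsk3a row and the 7 genes in each of the 15 libraries, 1 panel per gene with its own vertical scale, in the order DKO, Math1-Cre and no-Cre. Points are single libraries, filled where the Gsk3a row is below 9.0, and lines are means of 5 libraries; Erbb4 is the panel in which all 5 filled points, 8.80 to 9.31, lie under the 10 open ones.

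Egfr, the receptor for epidermal growth factor and its relatives, followed a like order over a narrower range. Its level was 8.84, 8.59, 9.12, 8.55 and 8.77 in DKO libraries 1 to 5. It was 8.65, 8.64, 8.88, 8.88 and 8.88 in Math1-Cre libraries 1 to 5, and 9.26, 9.10, 9.09, 8.76 and 9.12 in no-Cre libraries 1 to 5. The Gsk3a-low libraries spanned 8.55 to 8.77 and the Gsk3a-high libraries 8.76 to 9.26, and they overlapped only through DKO 5 at 8.77 and no-Cre 4 at 8.76. The difference of their means was -0.35, and 2.19% of genes had a lower one. Among the libraries that carry Cre alone, the Gsk3a-low ones all lay below the Gsk3a-high ones, which spanned 8.84 to 9.12, as for 1.8% of all genes. The values of Math1-Cre 3, 4 and 5 were identical to the last deposited digit. Over the 15 libraries Egfr and Erbb4 had a Pearson correlation of 0.74, and over the 10 Gsk3a-high libraries, which share the row's level, it was 0.36. These points share arrays and normalization, and the correlations are descriptions.

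**Figure D2:**
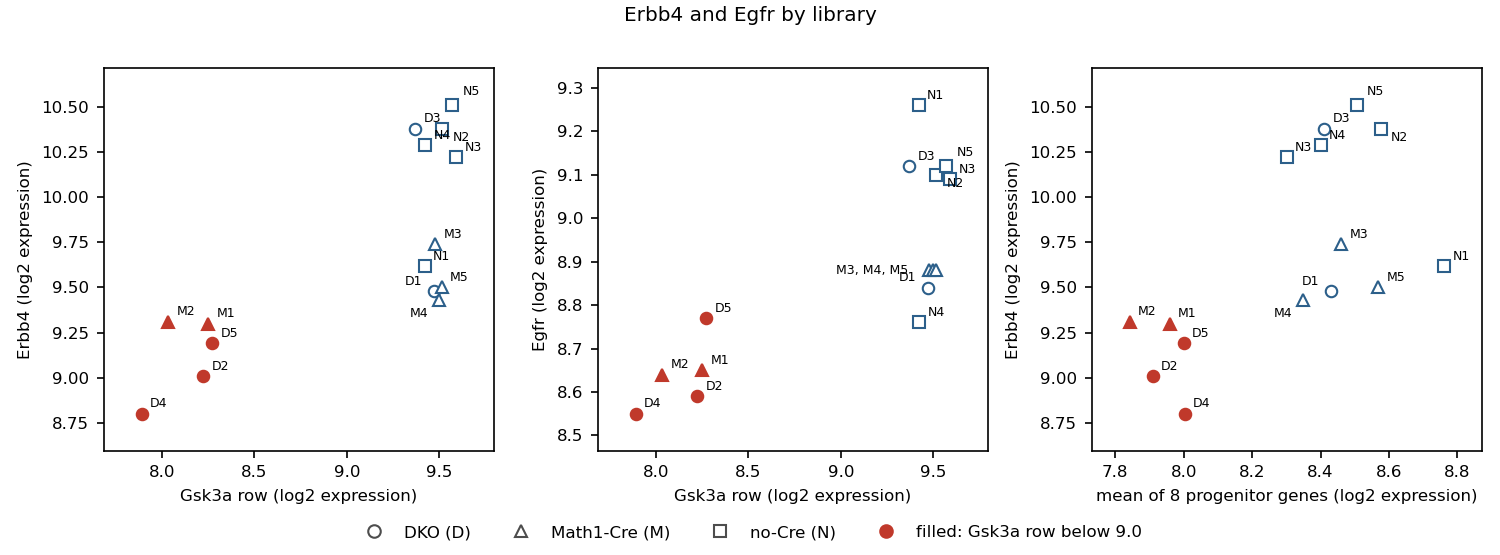
Left and middle, Erbb4 and Egfr (vertical, log2 expression) against the Gsk3a row (horizontal, log2 expression); right, Erbb4 against the mean log2 level of 8 granule progenitor genes. Each point is 1 library (circle DKO, triangle Math1-Cre, square no-Cre; filled, Gsk3a row below 9.0), and on the right the filled points lie between 7.84 and 8.00 and the open ones between 8.30 and 8.76.

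Erbb3, the neuregulin receptor with a weak kinase, was near the array's background in every library. It stood at 3.92, 3.77, 3.84, 3.97 and 3.81 in DKO libraries 1 to 5. It stood at 4.58, 4.39, 4.18, 4.11 and 4.55 in Math1-Cre libraries 1 to 5, and at 4.54, 3.95, 4.02, 4.06 and 4.06 in no-Cre libraries 1 to 5. No DKO library reached a Math1-Cre library, while DKO 4 at 3.97 passed no-Cre 2 at 3.95. As a gauge of background, the 95th percentile of the 1394 olfactory and vomeronasal receptor genes lay between 4.65 and 5.58 across libraries, and Erbb3 was above it in 0 of 15. Erbb3 marks the oligodendrocyte lineage in brain, among other cells, and the mean of 7 oligodendrocyte lineage genes ran from 6.41 to 6.68 in DKO libraries, 6.57 to 6.91 in Math1-Cre libraries and 6.51 to 7.00 in no-Cre libraries. Its part in the Erbb3 values was not tested.

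Erbb2, the partner receptor without a known soluble ligand, was 6.53, 6.42, 6.22, 6.84 and 7.00 in DKO libraries 1 to 5. It was 6.97, 7.11, 6.73, 6.86 and 7.01 in Math1-Cre libraries 1 to 5, and 6.95, 6.89, 6.82, 6.48 and 7.15 in no-Cre libraries 1 to 5. The lowest values were those of DKO 3, DKO 2, no-Cre 4 and DKO 1, and every pair of groups overlapped. On the Gsk3a row the low libraries spanned 6.42 to 7.11 and the high libraries 6.22 to 7.15.

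The 3 neuregulins overlapped between all groups. Nrg1, a ligand of ERBB3 and ERBB4, lay between 9.44 and 9.62 in DKO libraries, between 9.42 and 9.53 in Math1-Cre libraries and between 9.32 and 9.67 in no-Cre libraries. Nrg2, another ligand of both receptors, lay between 5.92 and 6.23 in DKO libraries, 6.05 and 6.22 in Math1-Cre libraries and 5.79 and 6.31 in no-Cre libraries. Nrg3, a ligand of ERBB4, lay between 8.40 and 8.86 in DKO libraries, 8.65 and 8.83 in Math1-Cre libraries and 8.33 and 9.20 in no-Cre libraries. They also overlapped between the Gsk3a-low and Gsk3a-high libraries, whose means differed by -0.04 for Nrg1, 0.05 for Nrg2 and -0.03 for Nrg3. The Nrg3 value of no-Cre 3, 9.20, stood above all other libraries, the next being DKO 2 at 8.86.

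The comparison of DKO with no-Cre libraries asks what loss of both kinases changes against controls labelled Gsk-3 intact, which carry 1 altered Gsk3a allele. With all 15 libraries, limma called 0 of the 7 genes at an adjusted p under 0.05 (Benjamini-Hochberg over all genes), beside 0.0721% of all genes. At an unadjusted p under 0.05 there were 3 of the 7, and 17.4% of all genes. Erbb4 averaged 9.37 ± 0.62 in DKO and 10.20 ± 0.34 in no-Cre libraries (SD, n = 5 each), a difference of -0.83 ± 0.24 (SE) with an adjusted p of 0.124 from limma, and it became a call when each array was centred on its median (-0.91 ± 0.23). Over all genes the calls went from 16 to 654 with centring, 626 of the 654 lower in DKO. The array medians were 5.09 to 5.21 in DKO and 5.01 to 5.07 in no-Cre libraries, so centring lowers DKO levels against no-Cre levels. The descriptions of the 3 replicate 5 libraries carry the code cg1724, and within the other 12 libraries the Erbb4 difference was -0.71 ± 0.28 (limma adjusted p 0.261). Egfr averaged 8.77 ± 0.23 in DKO and 9.07 ± 0.19 in no-Cre libraries, a difference of -0.29 ± 0.11 with a limma adjusted p of 0.207. Erbb3 differed by -0.26 ± 0.11 and Erbb2 by -0.26 ± 0.14, with limma adjusted p of 0.253 and 0.364. For the neuregulins the 95% intervals of the difference ran from -0.18 to 0.13 for Nrg1, from -0.20 to 0.20 for Nrg2 and from -0.27 to 0.30 for Nrg3.

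Without the 4 libraries whose row goes against the label, limma called 0 of the 6 genes other than Erbb4 in this comparison, and 1.08% of all genes. Of these 6 only Egfr had an unadjusted p under 0.05, as did 12.7% of all genes. Erbb4, which was chosen because it passes here, averaged 9.00 ± 0.19 in the 3 DKO libraries and 10.20 ± 0.34 in the 5 no-Cre libraries, a difference of -1.20 ± 0.18, given as a description. Egfr averaged 8.64 ± 0.12 and 9.07 ± 0.19 in these DKO and no-Cre libraries, a difference of -0.43 ± 0.11 with a limma adjusted p of 0.0982. Erbb3 differed by -0.27 ± 0.14, Erbb2 by -0.11 ± 0.16 and Nrg1 by -0.06 ± 0.09, none of them called.

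The comparison of DKO with Math1-Cre libraries sets the loss of both kinases against the loss of Gsk-3 beta. With all 15 libraries limma called 0 of the 7 genes, beside 0.55% of all genes. At an unadjusted p under 0.05 there were 2 of the 7, and 23% of all genes. The 2 were Erbb3 and Erbb2, whose Gsk3a-low and Gsk3a-high libraries overlapped. The DKO and Math1-Cre arrays also differed as a whole. The array median was 5.09 to 5.21 in DKO and 5.02 to 5.05 in Math1-Cre libraries. The interquartile range was 3.51 to 3.74 in DKO and 3.75 to 3.82 in Math1-Cre libraries. The receptor gene percentile was 4.90 to 5.58 in DKO and 4.75 to 4.87 in Math1-Cre libraries. A difference by label and an array-wide difference therefore cannot be told apart here. Erbb3 averaged 3.86 ± 0.08 in DKO and 4.36 ± 0.21 in Math1-Cre libraries (SD, n = 5 each), a difference of -0.50 ± 0.11 with a limma adjusted p of 0.0591, and both means lay in the background range. Within the 12 libraries whose descriptions lack the code cg1724 it was -0.44 ± 0.13 (limma adjusted p 0.151). Its groups did not overlap, as for 5.51% of all genes in that direction, and it became a call after quantile normalization or centring of the arrays, or without no-Cre 1 or no-Cre 4, which enter the fit through the shared spread. Over all genes the calls numbered 122 in the main fit, 72 after quantile normalization, 1767 after centring and 1288 without no-Cre 4. Of those after centring, 1666 were lower in DKO. Erbb2 averaged 6.60 ± 0.32 in DKO and 6.94 ± 0.15 in Math1-Cre libraries, a difference of -0.34 ± 0.14 with a limma adjusted p of 0.182. Erbb4 differed by -0.08 ± 0.24 and Egfr by -0.02 ± 0.11, and each of these groups held libraries with a low and with a high Gsk3a row. Without the 4 libraries, limma called 0 of the receptor and neuregulin genes other than Erbb4, beside 0.541% of all genes. Of these only Erbb3 then had an unadjusted p under 0.05, as did 15.9% of all genes. Erbb3 differed by -0.43 ± 0.16 and Egfr by -0.25 ± 0.12, with limma adjusted p of 0.245 and 0.333. Erbb4 differed by -0.56 ± 0.20, given as a description. The DKO libraries kept are all Gsk3a-low and the Math1-Cre libraries kept all Gsk3a-high, and Erbb4 was chosen along that row.

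The Math1-Cre and no-Cre libraries differ by Cre and the loss of Gsk-3 beta. With all 15 libraries limma called 0 of the 7 genes and 0% of all genes, with 2 of the 7 and 716 of all genes at an unadjusted p under 0.05. Erbb4 averaged 9.46 ± 0.18 in Math1-Cre and 10.20 ± 0.34 in no-Cre libraries, a difference of -0.75 ± 0.24, and Egfr averaged 8.79 ± 0.13 and 9.07 ± 0.19, a difference of -0.28 ± 0.11, each with a limma adjusted p of 1.0. Erbb3 differed by 0.24 ± 0.11, with Math1-Cre the higher. Without the 4 libraries the difference of Erbb4 was -0.65 ± 0.18, and limma called 0 of the 7 genes and 0% of all genes. At an unadjusted p under 0.05 there was 1 of the 7, Erbb4 itself, for which the family was chosen, and 2.2% of all genes. The 3 comparisons share their libraries in pairs, so these differences are not independent of each other.

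**Figure D3:**
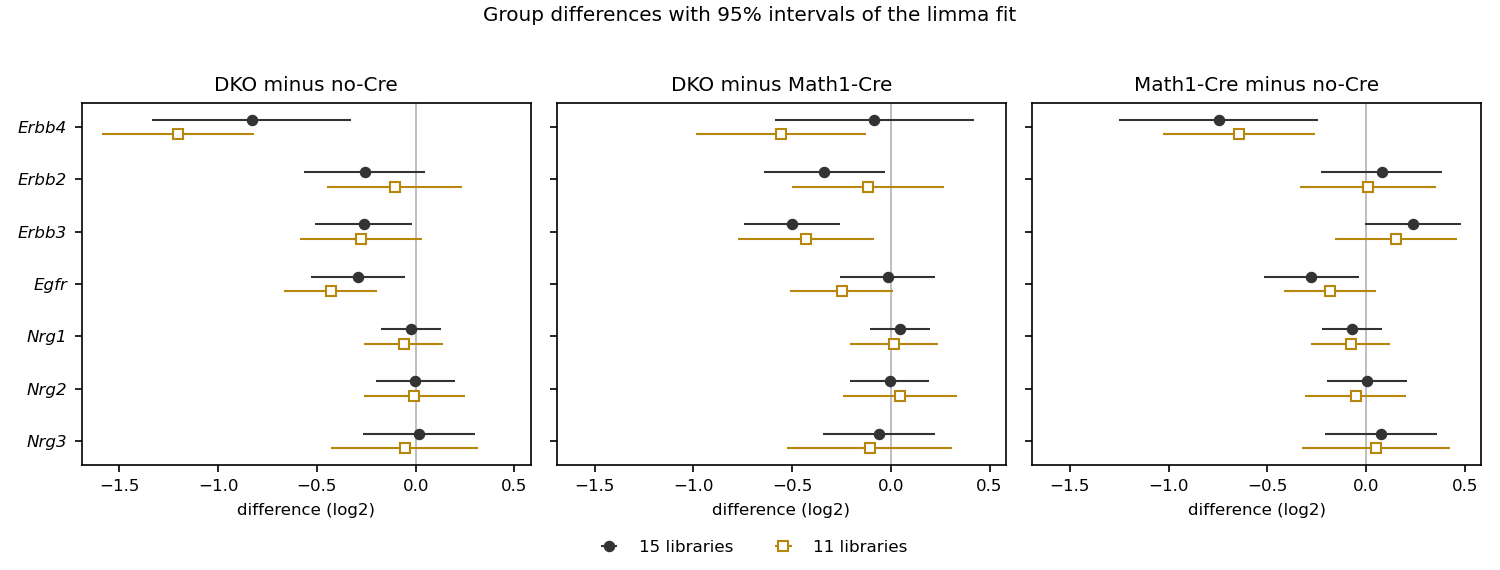
Difference in mean log2 expression of each of the 7 genes with its 95% interval from limma, in the 3 comparisons, with all 15 libraries and with the 11 whose Gsk3a row follows the label. Erbb4 lies at -0.83 and -1.20 for DKO minus no-Cre, and the neuregulin intervals cross 0 in all panels.

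Genes that act with these receptors were read from 6 lists of 44 genes, 41 of them measured. With all 15 libraries limma called 0 of the 41 in any comparison, where the smallest adjusted p was 0.0756. At an unadjusted p under 0.05 there were 3 for DKO minus no-Cre, 7 for DKO minus Math1-Cre and 3 for Math1-Cre minus no-Cre, against 17.4%, 23% and 3.23% of all genes in these comparisons. Between the Gsk3a-low and Gsk3a-high libraries, 3 of the 41 lay below and 0 above without overlap, against 0.843% below and 0.663% above over all genes, and the median difference of the 41 was -0.01. The 3 were Grin2c, the neuregulin-responsive NMDA receptor subunit, Lrig3, listed here with the negative regulators, and Gab1, an adaptor downstream of growth factor receptors. Gab1 was named after its values were seen.

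Of the other ligands, Egf, Ereg, Btc, Epgn and Nrg4 did not pass the receptor gene percentile in any library, and 2 of the 7 measured did, Tgfa and Hbegf, both ligands of EGFR. Tgfa differed by -0.55 ± 0.15 between DKO and Math1-Cre libraries with a limma adjusted p of 0.078, and by -0.28 ± 0.15 between DKO and no-Cre libraries with a limma adjusted p of 0.344. Hbegf spanned 6.26 to 6.56 in the Gsk3a-low and 6.18 to 6.73 in the Gsk3a-high libraries. The proteases that release ligands and cleave ERBB4 also overlapped on the row in 6 of 6 genes, among them Adam10 at 9.84 to 10.08 in the low and 9.32 to 9.98 in the high libraries and Adam17 at 7.67 to 8.03 in the low and 7.43 to 8.26 in the high libraries.

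Among the 8 negative regulators Lrig3 was 7.67, 7.56, 8.03, 7.08 and 7.27 in DKO libraries 1 to 5. It was 7.63, 7.50, 7.97, 7.77 and 7.88 in Math1-Cre libraries 1 to 5, and 8.20, 8.04, 7.79, 7.66 and 8.21 in no-Cre libraries 1 to 5. The Gsk3a-low libraries ended at 7.63 and the high ones began at 7.66, a narrow gap. The Lrig3 difference between DKO and no-Cre libraries was -0.46 ± 0.16 with all 15 libraries and -0.68 ± 0.15 with 11, with limma adjusted p of 0.174 and 0.0539. Lrig1, named after its values were seen, went the other way by median. It spanned 8.96 to 9.20 (median 9.11) in the low and 8.52 to 9.15 (median 8.77) in the high libraries. Over the 8 genes the median difference of low from high libraries was 0.03. Errfi1, a feedback inhibitor of EGFR, overlapped, at 8.50 to 8.90 in the low and 8.10 to 8.69 in the high libraries.

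Among 11 adaptors and effectors, 1 was called by limma with the 11 libraries, against 1.08% of all genes: Pik3r3, a regulatory subunit of PI 3-kinase, fell in DKO against no-Cre libraries by 0.46 ± 0.09 on the log2 scale with an adjusted p of 0.0321. With all 15 libraries the Pik3r3 difference was -0.33 ± 0.10 with a limma adjusted p of 0.149. Pik3r1, another regulatory subunit, named after its values were seen, went the other way. Its DKO minus no-Cre difference with the 11 libraries was 0.19 ± 0.11 (limma adjusted p 0.507). It spanned 9.74 to 10.14 in the Gsk3a-low and 9.47 to 9.89 in the Gsk3a-high libraries. Gab1 ranged from 8.98 to 9.16 in the Gsk3a-low libraries and from 9.22 to 9.68 in the Gsk3a-high ones. Of the 7 targets of ERK signalling, which receptor tyrosine kinases activate, 0 were called by limma with 15 or with 11 libraries; at an unadjusted p under 0.05 there were 0 with 15 libraries and 1, for DKO minus no-Cre, with 11, where 12.7% of all genes passed. Etv5 spanned 8.10 to 8.56 in the low and 8.45 to 8.83 in the high libraries, and Dusp6, a phosphatase that limits ERK, spanned 8.79 to 9.03 in the low and 8.35 to 8.93 in the high libraries.

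The 2 receptor subunit genes that neuregulin raises in cultured granule cells had unlike values along the Gsk3a row. Grin2c was 4.42, 3.92, 4.27, 3.78 and 3.49 in DKO libraries 1 to 5. It was 3.97, 4.08, 4.66, 5.13 and 4.79 in Math1-Cre libraries 1 to 5, and 4.94, 4.84, 4.72, 4.29 and 4.98 in no-Cre libraries 1 to 5. The 5 Gsk3a-low libraries, 3.49 to 4.08, all lay below the others, 4.27 to 5.13, and were not above their array's receptor gene percentile, which 5 of the 10 Gsk3a-high libraries passed. By group it was passed in 0 of 5 DKO, 2 of 5 Math1-Cre and 3 of 5 no-Cre libraries, so no size is given for a difference from DKO. With the 11 libraries limma called Grin2c lower in DKO than in no-Cre and in Math1-Cre libraries, with adjusted p of 0.0123 and 0.0215, and with all 15 libraries it did not, with adjusted p of 0.124 and 0.164. The 11 were kept by their Gsk3a row, so these calls are not separate from the split on it. Gabrb2 spanned 8.90 to 9.49 in the Gsk3a-low and 8.92 to 9.41 in the Gsk3a-high libraries.

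**Figure D4:**
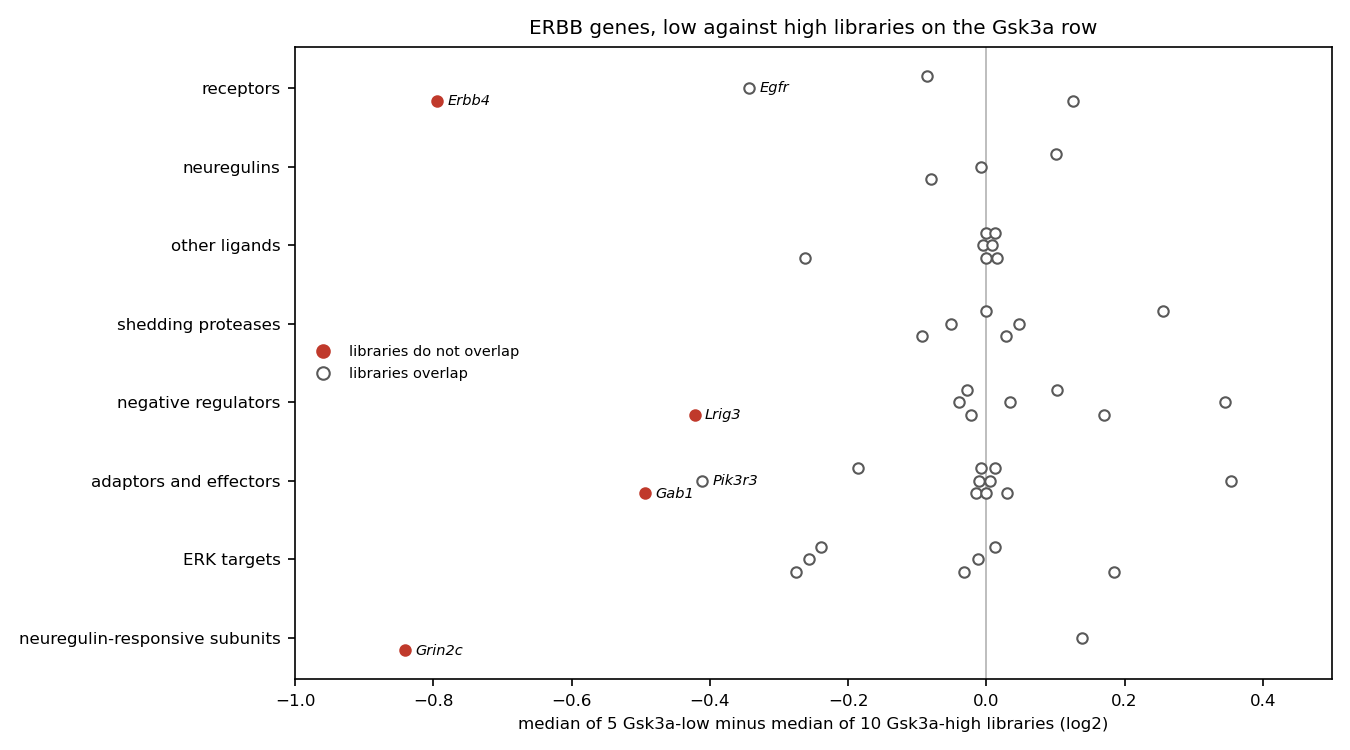
Median log2 level of the 5 Gsk3a-low minus that of the 10 Gsk3a-high libraries for the 7 genes and the 41 measured genes of the 6 lists, by role (rows). Filled points are genes whose libraries do not overlap: Erbb4, Lrig3, Gab1 and Grin2c.

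The list means of granule lineage markers moved along the same row as Erbb4 and Egfr, though not every gene of the lists did. In bulk RNA, fewer cells of a type and less RNA per cell cannot be told apart. The mean of 8 granule progenitor genes was 7.84 to 8.00 in the Gsk3a-low and 8.30 to 8.76 in the Gsk3a-high libraries, with 3 of the 8 (Nhlh1, Mycn and Ccnd1) below without overlap, against 0.843% of all genes, and all 8 above the receptor gene percentile in at least 1 library. The mean of 8 granule neuron genes was 8.89 to 8.95 in the low and 9.08 to 9.43 in the high libraries, with Cadps2 the 1 gene of 8 without overlap. In the same list Zic1 was 11.24 to 11.47 in the low and 11.12 to 11.51 in the high libraries. Zic2 was 10.79 to 10.98 in the low and 10.68 to 11.16 in the high libraries. Over all marker lists 4 of 71 genes lay below and 0 above. Among the Gsk3a-high libraries Erbb4 and the progenitor mean did not rank alike: no-Cre 1 had the highest progenitor mean, 8.76, and an Erbb4 level of 9.62, under the other no-Cre libraries.

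ERBB4 is also made by GABAergic interneurons and ERBB receptors by glia. The mean of 7 GABAergic interneuron genes was 7.83 to 8.03 in the Gsk3a-low and 7.73 to 8.15 in the Gsk3a-high libraries, and that of 8 astrocyte and Bergmann glia genes was 8.50 to 8.78 in the low and 8.28 to 8.74 in the high libraries. The oligodendrocyte, Purkinje, microglia, endothelial and meningeal list means overlapped as well. Of the neural crest and Schwann cell genes Foxd3 and Pmp2, and of the hindbrain genes Hoxb2, Hoxa3, Hoxb3 and Hoxb4, did not pass the receptor gene percentile in any library. The hindbrain genes Hoxa2, Isl1 and Tph2 passed it in at least 1 library. Hoxa2 ranged from 3.91 to 7.39 and Tph2 from 3.13 to 7.37, both highest in no-Cre 3, the library with the highest Nrg3 value. The hindbrain list mean was 3.85 to 4.22 in the low and 3.60 to 4.97 in the high libraries. Its part in the Nrg3 values was not tested. The part of the granule lineage markers in the values of Erbb4, Egfr and Grin2c was not tested.

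The genes most like Erbb4 over the 15 libraries were chosen by Pearson correlation, which is a description over libraries that share the Gsk3a split. The 8 highest were Hmgb2, Insm2, Grik3, Foxm1, Nek2, Pdk2, Rnf148 and Tfdp2, from 0.837 for Hmgb2, a chromatin protein abundant in dividing cells, to 0.792 for Tfdp2, a partner of E2F factors. The 8 lowest were Tmem176b, Onecut2, Cacna1i, Onecut1, Tec, Bcar3, Tmem150c and Smarcd2, from -0.873 for Tmem176b to -0.808 for Smarcd2. Onecut1 and Onecut2 encode transcription factors of the same family. Of the 16 genes, 5 of the 8 highest and 6 of the 8 lowest had Gsk3a-low libraries that did not overlap the Gsk3a-high ones, against 1.51% of all genes, and a choice by likeness to Erbb4 favours such genes. Within the 10 Gsk3a-high libraries the correlations were 0.418 to 0.634 for the highest and -0.703 to -0.527 for the lowest. Without DKO 3 and no-Cre 5, the libraries farthest from the Erbb4 median, they were 0.713 to 0.863 for the highest and -0.843 to -0.771 for the lowest.

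By the same measure the genes most like Egfr were Lmcd1, Nek2 and Tacc3, so Nek2, a centrosomal kinase of dividing cells, stood in the lists of both Erbb4 and Egfr. Erbb2 was most like Lmbrd1, Tcn2 and C1qc, Erbb3 like Rev1, Tmem232 and Kbtbd2, Nrg1 like Btn1a1, Tcf7l1 and Bud31, Nrg2 like Hook2, Tmem115 and Sacm1l, and Nrg3 like Zwint, Pfn2 and Rara. Among the 7 genes themselves, the correlations of Nrg2 with Nrg3, 0.61, with Nrg1, 0.58, and of Erbb2 with Erbb3, 0.55, were the highest after that of Erbb4 with Egfr.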

How the data were processed

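The authors deposited log2 expression, 1 value for each array row, between 2.11 and 13.49. RMA, Partek 6.6 and the build mm9 are named, per the submitters' processing notes, without order or settings. RMA summaries near the lowest values are compressed, which shrinks differences of genes near background. The platform annotation gives 1 gene symbol to 23521 of 41345 rows, several to 1814 and none to 16010. The row with the highest mean stood for a gene, which left 22180 genes.

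Groups came from the titles. A limma model (limma 3.58.1, R 4.3.3) with 1 mean for each group covered all genes in the 15 libraries, with 12 residual degrees of freedom, eBayes moderation and no covariate. P-values were two-sided, adjusted by Benjamini-Hochberg over all genes, with a threshold of 0.05, and the model was tested on simulated data. The 11-library fit used the same model. Levels were set beside the olfactory and vomeronasal receptor genes of each array, taken as a gauge of background.

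The genes, lists and tests were chosen with earlier results of these data known. Named genes are the 7 members, Gsk3a and Gsk3b, called genes of 6 pathway lists with the 2 of highest mean and the 2 of widest range in each, and the 8 genes of highest and 8 of lowest correlation with Erbb4 (3 of highest for other members), among named genes above the 30th percentile of mean level. Listed genes without a value, and the erythroid list, were not analysed here. No p is given for the Gsk3a-low against the Gsk3a-high libraries, as the row is a measured value. The 11 libraries were kept by the same row, so the p-values for DKO from that fit depend on it too. Quantile normalization, centring on the median, a filter on low values, other moderation, blocks and left-out libraries were tried as alternatives. The number of arrays limits the precision. Figures were drawn with matplotlib 3.10.9.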

Additional observations from a re-analysis of the deposited data

Results flagged for a closer look

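Erbb3 in no-Cre 1 stood at 4.54, while no-Cre 2 to 5 lay between 3.95 and 4.06, a gap to the next library that passed Dixon's limit for 5 samples. It was 1 of 21 groups of libraries tested, and chance passes the limit in about 1 of 20. Erbb3 was not above the receptor gene percentile in this library, and without it the difference of DKO from no-Cre libraries was -0.16, against -0.26 with it.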

How the results depend on the processing

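Of 525 values (7 genes, 3 comparisons, 25 other settings), 469 kept their direction and side of the threshold and 6 became calls. Among the 6 is Erbb4 with the 11 libraries, which was chosen because it passes there. The other 50 changed sign, all of differences that were not calls.

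Called genes of the 7 numbered 1 for DKO minus no-Cre after centring (Erbb4, -0.91, limma adjusted p 0.045), beside 654 of all 22180 genes, and 0 without any 1 library. With the 11 libraries Erbb4 passed, beside 1.08% of all genes, but it was chosen for passing there. For DKO minus Math1-Cre called genes of the 7 numbered 1 (Erbb3) after quantile normalization (-0.61, limma adjusted p 0.0425) and centring (-0.58, 0.0215), and 0 to 1 over left-out libraries, 1 without no-Cre 1 (0.0465) or no-Cre 4 (0.0312). Beside it, 72 of all genes were called after quantile normalization, 1767 after centring and 1288 without no-Cre 4. The Erbb4 difference for DKO minus no-Cre ran from -1.20 to -0.69 over all settings.

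Over all genes, calls for DKO minus no-Cre (16) were 57 after quantile normalization, 654 after centring, 33 with trend and robust moderation, 2 with only the groups compared, 7 with the code cg1724 (borne by the 3 replicate 5 libraries) as a block, 2 within the other 12 libraries, 2 with array spread as a covariate, 239 with the 11 libraries, and 0 to 1546 without 1 library (the most without no-Cre 4). For DKO minus Math1-Cre (122) they were 72 after quantile normalization, 1767 after centring, 236 with trend and robust moderation, 1 within the 12 libraries, 1 with array spread, and 0 to 1288 without 1 library (again the most without no-Cre 4). For Math1-Cre minus no-Cre they were 0 in all settings run. Of the called genes 4 were higher and 12 lower for DKO minus no-Cre, but 28 and 626 after centring, and 29 were higher and 93 lower for DKO minus Math1-Cre, but 101 and 1666 after centring. The cause was not tested. Genes of the 7 separated along the Gsk3a row numbered 2, Erbb4 and Egfr, after centring and without DKO 5 or no-Cre 4, and 1 to 2 over left-out libraries; these settings for the row were chosen after seeing the data.

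After the group mean of each gene was subtracted, same-numbered libraries had correlations of -0.303 to 0.299 over all genes. They were over 0.1 in 2 of 5 pairs for DKO minus no-Cre, 3 of 5 for DKO minus Math1-Cre (each the best match of its number) and 1 of 5 for Math1-Cre minus no-Cre. As not every pair passed 0.1, the numbers were not taken to pair the samples. With the replicate block, 6 genes were called for DKO minus no-Cre and 0 for DKO minus Math1-Cre (122 without it), and Erbb4 differed by -0.83 (limma adjusted p 0.139).

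Sign changes were as follows. Quantile normalization gave 0.0142 for Nrg1 in DKO minus no-Cre, 0.0506 for Egfr, 0.0014 for Nrg2 and 0.0151 for Nrg3 in DKO minus Math1-Cre, and -0.0087 for Nrg2 in Math1-Cre minus no-Cre. Centring gave -0.0624 for Nrg3 in DKO minus no-Cre and -0.0327 for Nrg1 in DKO minus Math1-Cre. Within the 12 libraries, Nrg1 and Nrg2 were 0.0273 and 0.0975 in DKO minus no-Cre, and Egfr and Nrg2 were 0.0092 and 0.0266 in DKO minus Math1-Cre. Array spread gave 0.0415 and 0.1188 for Nrg1 and Nrg2 in DKO minus no-Cre, 0.0816, 0.1659 and 0.1348 for Egfr, Nrg2 and Nrg3 in DKO minus Math1-Cre, and -0.0471 for Nrg2 in Math1-Cre minus no-Cre. The 11 libraries gave -0.0564 for Nrg3 in DKO minus no-Cre, 0.0463 for Nrg2 in DKO minus Math1-Cre and -0.0524 for Nrg2 in Math1-Cre minus no-Cre. Over left-out libraries, DKO minus no-Cre ran from -0.0815 to 0.0067 for Nrg1, -0.0834 to 0.0492 for Nrg2 and -0.0698 to 0.1478 for Nrg3. DKO minus Math1-Cre ran from -0.3374 to 0.0593 for Erbb4, -0.1029 to 0.039 for Egfr, -0.0344 to 0.0449 for Nrg2 and -0.1038 to 0.0102 for Nrg3. Math1-Cre minus no-Cre ran from -0.0175 to 0.1518 for Erbb2, -0.0775 to 0.0527 for Nrg2 and -0.0105 to 0.2071 for Nrg3. No gene of the 7 had another row, so the choice of row could not be varied.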

Other observations

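Several genes had libraries with identical deposited values at the median of their row. Egfr was 8.884 in Math1-Cre 3, 4 and 5. Nrg1 was 9.5322 in DKO 1, Math1-Cre 2, Math1-Cre 5 and no-Cre 1. Pairs of libraries were identical for Erbb3, Nrg2 and Nrg3. Over all genes, 7106 (32%) had at least 2 libraries at the same value, 5862 (26.4%) at least 2 at the row median and 3134 (14.1%) at least 3. In the 11-library fit the SD of Egfr over the 3 Math1-Cre libraries was 0.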
